A study of Homo sapiens with 3 samples.

Results

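The control sample of KYSE140 cells is described here through the levels of all its genes, to show which genes these cells carried most of, which lineage markers were present or near 0, and which receptors and transcription factors stood highest. It is 1 of 3 samples of the series and was chosen by its label as the negative control. KYSE140 is an established human cell line of esophageal squamous carcinoma, a tumour of the stratified lining of the gullet. The series asked what the homeobox factor DLX5 does beside TP63 in squamous carcinoma, and its other samples, DLX5 siRNA1 and DLX5 siRNA2, received siRNAs against DLX5. All 3 samples were KYSE140 cells grown in RPMI1640 medium with 10% FBS. The control therefore stands for cells in culture medium, not for tumour tissue. The sources used here do not give what the control cells received beyond the words negative control, nor their passage or the number of cultures.

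Each gene has a value in 2 replicate columns of the control, in FPKM (fragments scaled to transcript length and to library depth). FPKM is divided by transcript length, so levels may be ordered between genes. The labels do not say whether the columns are separate cultures, so the SDs printed below cover only the spread between 2 columns of 1 sample and may be technical. With 1 sample in the group no test was made. The spacing of low values put the depth at about 17100000 and 17200000 reads, which makes 1 FPKM worth about 54.5 and 54.9 reads for a transcript of the median length of 3189 bases. The control columns correlated with Pearson's r = 0.9983 across 17219 genes on the scale log2(FPKM + 1); genes are not independent replicates.

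Stratified squamous epithelium rests on a basal layer that divides, holds the basement membrane through integrins and laminins, and makes the keratin pair KRT5 and KRT14. Cells that leave this layer change their keratins and build a cornified envelope. The p63 protein, encoded by TP63, is required for the basal state, and SFN encodes 14-3-3 sigma, a protein of stratified epithelium.

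All 5 genes chosen as markers of the line were present. KRT5 stood at 3138 and 3116 FPKM in the replicate columns, a mean of 3127 ± 15.5 (SD over 2 columns), and was the gene of rank 4 among 17219. KRT17, a keratin of basal and stressed epithelium, stood at 3033 and 3081 FPKM and had rank 5. SFN stood at 714 and 702 FPKM with rank 84. KRT14 stood at 466 and 456 FPKM with rank 125, far below its partner KRT5, and TP63 stood at 94.7 and 89.5 FPKM with rank 742. These levels go with the label of a squamous line. They are no independent support for it, since the sample and the lists were chosen with earlier results of these data known. KRT14 was 6.78 times lower than KRT5 and 6.63 times lower than KRT17 in FPKM. In a bulk sample, fewer cells making a transcript and less of it per cell cannot be told apart. DLX5, the target of the siRNAs in the other samples, stood at 13.1 and 12.9 FPKM in the control, rank 5528.

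**Figure D1:**
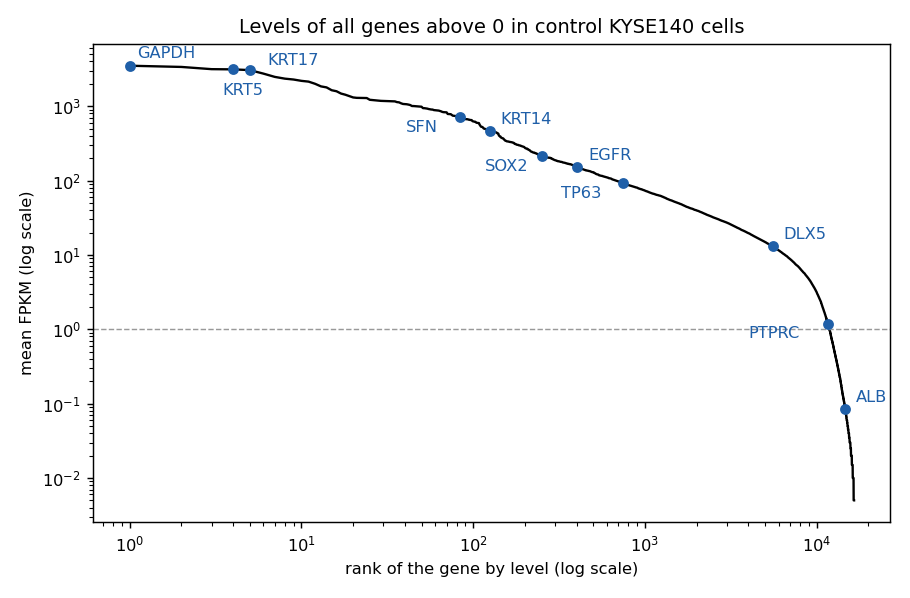
Mean FPKM (y axis, log scale) of every gene above 0 in the control against its rank (x axis, log scale), as a line, with 11 genes named as points and 1 FPKM as a dashed line. KRT5 and KRT17 lie at ranks 4 and 5 beside GAPDH at rank 1, TP63 at rank 742, and ALB, a liver gene at 0.085 FPKM, lies far below the dashed line.

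Of the 17219 genes with a value, 11846 (68.8%) reached 1 FPKM, taken here as detected. That is 61.5% of the 19266 genes in the table, which also lists 2047 genes with no value, among them 310 olfactory receptor and 72 keratin-associated protein symbols. A further 733 genes were listed at 0. The median level was 5.38 FPKM over all genes with a value and 11.7 FPKM over detected genes. The columns lay close together where levels were high: they differed by a median of 1.75% above 1000 FPKM, 3.47% between 10 and 100 FPKM, 6.64% between 1 and 10 FPKM, and 26.1% between 0.1 and 1 FPKM. Levels under 0.1 FPKM, with a median difference of 133%, are read below only as near 0.

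The pool was uneven. The 45 genes above 1000 FPKM held 17.2% of the summed FPKM, the 100 highest genes held 27.4%, and 533 genes made up 50% of it. Ribosomal protein genes led: 85 of 89 with a value reached 1 FPKM, beside 68.8% of all genes, and together they took 16.8% of the sum. They supplied 11 of the 25 highest genes and 58 of the 100 highest. RPL41 stood at 3371 and 3373 FPKM, RPS2 at 3166 and 3128 FPKM and RPS6 at 2345 and 2348 FPKM. Those under 1 FPKM included the tissue-restricted paralogs RPL3L, known from muscle, at 0.405 FPKM and RPL10L, known from testis, at 0.035 FPKM. The table holds no gene of the mitochondrial chromosome, so the share of the pool from those genes was not analysed here.

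Apart from ribosomal proteins, the 25 highest genes were GAPDH (rank 1, glycolysis), KRT5, KRT17, KRT6A, FTH1 (ferritin heavy chain, an iron store), ACTB, EEF1A1 (translation elongation), TUBA1B, BTF3, ACTG1, NPM1, PKM, PTMA and TMSB10. Thus 3 keratins, between 2744 and 3127 FPKM, stood among the 6 highest genes of the control, beside GAPDH at 3486 and 3517 FPKM. The order at the top was mostly wider than the column spread: of 24 neighbouring pairs among the 25 highest genes, 6 overlapped between columns. Cytoskeletal and actin-binding genes took 3.52% of the sum, keratins 2.60%, translation factors 2.34% and glycolysis genes 2.23%. All 17 glycolysis genes with a value reached 1 FPKM, beside 68.8% of all genes. They were led after GAPDH by PKM at 1364 and ENO1 at 1179 FPKM. LDHB stood at 764 FPKM and LDHA at 478 FPKM, the lactate dehydrogenase subunits that interconvert pyruvate and lactate. HK2, a hexokinase, stood at 16.0 FPKM and below HK1 at 35.6 FPKM.

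Many mRNAs of the translation machinery begin with a cytosine and a run of pyrimidines, the terminal oligopyrimidine tract, which ties their translation to nutrient signalling. The genes at the top of the control therefore let a sequence feature be set beside level. Start-site windows were taken from RefSeq's promoter table on GRCh38.p14, which matched 13749 of the 17219 genes (79.8%). The table's first start was used for each gene, and it need not be the start used in KYSE140. A tract was counted where the first transcribed base was C and at least 4 pyrimidines (C or T) followed it on the gene's strand. The lines below run from 10 bases before the start to 20 bases after it, 5′ to 3′ on the gene's strand, with the tract in capitals, and show 4 of the translation genes beside KRT5 and TP63, in which no tract was found.
RPL41, chr12:56116623-56116652, plus strand: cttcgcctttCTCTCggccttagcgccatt
RPS6, chr9:19380217-19380246, minus strand: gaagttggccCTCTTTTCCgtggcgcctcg
RPLP1, chr15:69452808-69452837, plus strand: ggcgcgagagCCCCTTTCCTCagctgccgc
EEF1A1, chr6:73521013-73521042, minus strand: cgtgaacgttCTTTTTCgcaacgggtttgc
KRT5, chr12:52520375-52520404, minus strand: gttcctgggtaacagagccaccttctgcgt
TP63, chr3:189631379-189631408, plus strand: gcctaaacttctatgtctgatagcatttga

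Such a start tract was found in 45 of 71 matched ribosomal protein genes (63.4%) and in 679 of all 13749 matched genes (4.94%). Of the 100 highest genes, 83 were matched and 42 of these (50.6%) carried the tract, against 4.29% of genes between 1 and 10 FPKM. Ribosomal protein genes made up much of this: without them, the tract was found in 5 of 18 genes above 1000 FPKM (27.8%) and in 11.3% of 478 genes between 100 and 1000 FPKM. None of the 21 matched keratin genes carried it, and KRT5 and KRT8 are among those 21. The letters TATAAA between 45 and 11 bases before the start were found in 6 of 21 keratin genes (28.6%) and in 3.0% of all matched genes. By level they were found in 11.8% of genes listed at 0, 0.939% of genes between 10 and 100 FPKM and 5.15% of genes between 100 and 1000 FPKM, so their share did not fall steadily with level. The number of CpG dinucleotides in the 250 bases before the start had a median of 4 in genes listed at 0, 11 between 0.1 and 1 FPKM and 22 between 10 and 100 FPKM. Over keratin genes the median was 2. These are counts of letters in a window and do not show which start or factor was used.

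The keratins, the intermediate filament proteins of epithelia that pair as type I with type II, were few at high level. Of 55 keratin genes in the table, 41 had a value. Of these 41, 17 reached 1 FPKM, beside 68.8% of all genes with a value. The 5 highest made up 92.4% of the keratin FPKM. The type II keratins summed to 6941 and 6900 FPKM in the columns and the type I keratins to 4178 and 4222 FPKM, a ratio of 1.65. Among type II genes KRT6A, a keratin of wound and hyperproliferative epithelium, stood at 2757 and 2730 FPKM. Its usual partner KRT16 stood at 20.4 ± 0.629 FPKM, so that KRT6A was 134 times higher than KRT16. KRT6C stood at 80.1 and 76.2 FPKM and KRT6B at 16.0 and 20.9 FPKM. KRT6A, KRT6B and KRT6C are near-identical copies, and the split of reads between them is uncertain.

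The simple epithelial keratins, which line single-layered epithelia and are also seen in cultured squamous lines, were high as well. KRT8 stood at 884 and 889 FPKM with rank 59, KRT18 at 399 and 408 FPKM with rank 141, and KRT19 at 172 and 166 FPKM with rank 353. KRT8 was 2.2 times higher than its partner KRT18. The table's spans of KRT8 and KRT18 overlap on opposite strands, and the sources used here do not give whether counting used strand. KRT7, a keratin of glands, stood at 7.46 FPKM and KRT20, an intestinal keratin, was listed at 0. Keratins of esophageal differentiation differed between partners: KRT13 stood at 51.3 ± 3.12 FPKM and KRT4 at 0.88 FPKM in both columns. Of 16 neighbouring pairs in the order of detected keratins, 4 overlapped between columns.

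**Figure D2:**
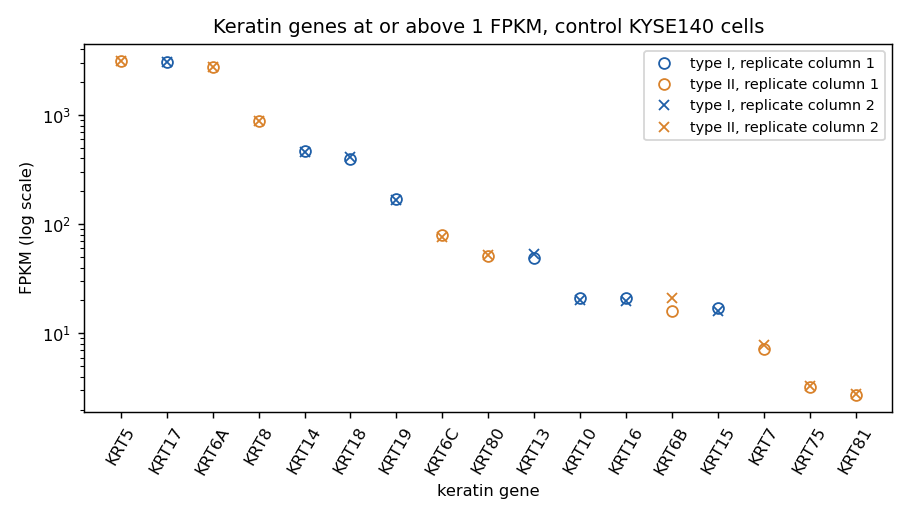
FPKM (y axis, log scale) of the 17 keratin genes at or above 1 FPKM (x axis, in order of level), with replicate column 1 as circles and column 2 as crosses, type I in blue and type II in orange. KRT5, KRT17 and KRT6A sit between 2730 and 3138 FPKM, and the next keratin, KRT8, sits near 886 FPKM.

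All 19 genes of the basal keratinocyte list reached 1 FPKM, with a median of 96.4 FPKM, beside 68.8% of all genes with a value. The list holds attachment genes but also KRT5, KRT14, KRT15, KRT17, TP63 and SFN, so its count repeats the markers described above. The basement membrane laminin-332 is built from 3 chains: of these, LAMB3 stood at 178 and 182 FPKM and LAMA3 at 39.7 FPKM. Their receptor, the integrin of ITGA6 and ITGB4, stood at 73.5 ± 2.65 FPKM and 136 ± 2.79 FPKM. COL17A1, the hemidesmosome collagen, stood at 126 ± 0.608 FPKM. Desmosomal DSG3 and DSC3, which join basal cells to each other, stood at 41.6 and 46.7 FPKM in the mean. DSG1, their counterpart in upper layers, stood at 0.055 FPKM, but DSC2, also listed with the suprabasal genes, stood at 30.5 FPKM.

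Differentiation genes were mixed. In the cornified envelope list 8 of 15 genes with a value reached 1 FPKM (53.3%, beside 68.8% of all genes), with a median of 2.23 FPKM. CSTA, a cysteine protease inhibitor of the envelope, stood at 102 FPKM in both columns to 3 digits, and PPL, which links desmosomes to the envelope, at 28.7 FPKM. IVL, the early envelope protein involucrin, stood at 0.03 and 0.16 FPKM, LOR (loricrin) at 0.19 FPKM, SPRR3, typical of esophageal lining, at 0.445 FPKM, and TGM3 at 0.14 FPKM. CRNN and MAL, further genes of differentiated esophagus, had no value. Of 16 suprabasal and stress genes with a value, 10 reached 1 FPKM (62.5%), among them KRT80 at 51.8 and KRT10 at 20.6 FPKM.

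Across the 4 squamous lists, 58 of 72 genes with a value reached 1 FPKM (80.6%, beside 68.8% of all genes), with a median of 17.7 FPKM. Across 14 lists of other lineages, 43 of 151 reached it (28.5%), with a median of 0.155 FPKM, and 58 of the 151 stood under 0.1 FPKM. The lists differ in length and in how specific their genes are. None of the 9 hepatocyte genes and none of the 10 endothelial genes reached 1 FPKM. Among endothelial markers PECAM1 stood at 0.195 FPKM and CDH5 at 0.05 FPKM, and among liver markers ALB stood at 0.085 FPKM. Of 13 blood cell genes 2 reached it: CD4 and SPI1 were listed at 0, while PTPRC, the pan-leukocyte antigen CD45, stood at 1.2 FPKM and CD68 at 6.27 FPKM.

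**Figure D3:**
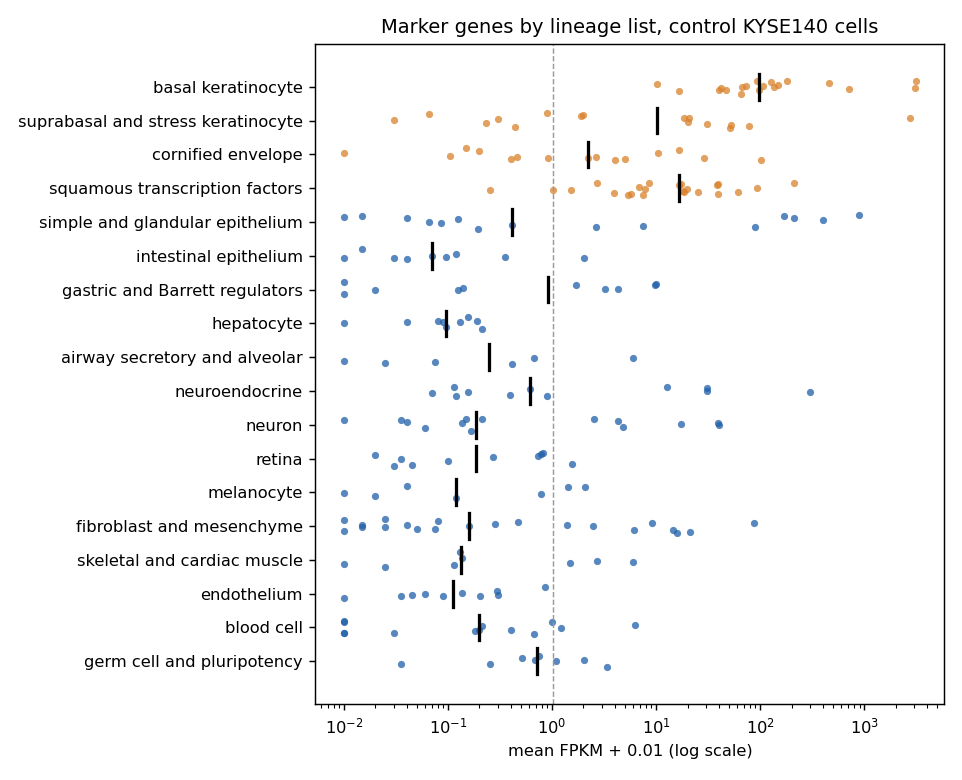
Mean FPKM plus 0.01 (x axis, log scale) of each marker gene with a value, by list (y axis), with squamous lists in orange, other lineages in blue, the list median as a black bar and 1 FPKM as a dashed line. The median of the basal keratinocyte list lies at 96.4 FPKM, while the medians of the 14 other-lineage lists all lie left of the dashed line.

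The design text of the series speaks of retina, and the sample labels of esophageal squamous cells. Of 14 retina genes 10 had a value. Of these, 1 reached 1 FPKM (10.0%, beside 68.8% of all genes with a value), RPE65 at 1.54 FPKM, and 4 reached 0.5 FPKM. Such a low count was not particular to retina: it was 1 of 9 in the intestinal list and 0 of 9 in the hepatocyte list. CRX, a photoreceptor regulator, stood at 0.765 FPKM and RCVRN, a calcium sensor of photoreceptors, at 0.025 FPKM. The low retina levels and the squamous markers described above go with the sample labels.

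Some genes of other lineages were high, and 24 of the 151 stood at 5 FPKM or more. In the simple and glandular list, EPCAM stood at 210 FPKM in both columns to 3 digits and AGR2, a secretory pathway disulfide isomerase, at 88.7 FPKM. The mucin genes MUC5AC and MUC6 stood at 0.005 and 0.115 FPKM. In the neuroendocrine list 4 of 11 genes with a value reached 1 FPKM (36.4%, beside 68.8% of all genes). UCHL1, a ubiquitin hydrolase abundant in neurons, stood at 300 and 305 FPKM with rank 181, CHGB at 30.3 and 31.5 FPKM, and ENO2 at 30.8 FPKM. SCG2, like CHGB a granin of secretory granules, stood at 12.6 and 12.7 FPKM. CHGA, another granin, stood at 0.105 FPKM and SYP at 0.605 FPKM. Of the neuron list, NEFL stood at 40.1 FPKM, TUBB3 at 39.1 FPKM and MAP2 at 17.4 FPKM, and SNAP25 at 0.05 FPKM.

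Mesenchymal genes also covered a wide range. VIM, the mesenchymal intermediate filament, stood at 86.9 and 86.6 FPKM, SNAI2, a repressor of epithelial genes also made by basal keratinocytes, at 21.3 FPKM, and CDH2 (N-cadherin) at 14.5 FPKM. THY1, a surface marker of fibroblasts, stood at 8.69 and 9.63 FPKM, TWIST2 at 6.12 FPKM and TWIST1 at 2.48 FPKM. CDH1, the epithelial cadherin, stood at 127 and 119 FPKM, above CDH2 in each column. FN1 stood at 0.275 FPKM, ZEB1 at 0.15 FPKM and ZEB2 at 0.07 FPKM. COL1A1 stood at 15.9 FPKM while COL1A2, which encodes the other chain of the same collagen, stood at 0.015 FPKM, and the fibroblast genes LUM and COL6A3 were listed at 0. In all, 8 of 21 genes of this list with a value reached 1 FPKM (38.1%, beside 68.8% of all genes) and 10 stood under 0.1 FPKM.

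Squamous transcription factors were present almost throughout: 22 of 23 reached 1 FPKM, beside 68.8% of all genes with a value. The exception was BARX2 at 0.245 FPKM. SOX2, the foregut and squamous lineage factor, was the highest at 218 and 205 FPKM, rank 252, and its lowest column lay above the highest column of TP63. FOXE1 stood at 61.2 FPKM, TFAP2A at 39.2 and KLF5 at 38.8 FPKM. The last pair lie within 1 FPKM of each other in the mean. ZNF750, which drives terminal differentiation, stood at 1.52 FPKM. Of 10 gastric and Barrett genes with a value 5 reached 1 FPKM, with FOXA1 at 10.0 FPKM, BARX1 at 9.82, GATA6 at 4.3, FOXA2 at 3.19 and GATA4 at 1.69 FPKM. These 5 levels lie below the median of the squamous factors, 16.7 FPKM, but the 2 lists overlap. FOXA1 and BARX1 stood above several squamous factors, among them TFAP2C at 8.43 and BNC1 at 7.75 FPKM. The intestinal factors CDX1 and CDX2 had no value. NKX2-1, the lung and thyroid factor, stood at 6.03 FPKM and NKX2-5, a heart factor, at 5.95 FPKM.

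Among all 578 genes with a value that the deposited annotation marks as sequence-specific RNA polymerase II factors, 410 (70.9%) reached 1 FPKM, close to the 68.8% of all genes, and 34 reached 50 FPKM. The annotation is broad and includes RNA-binding proteins. Its highest genes were HMGA1, an architectural chromatin protein, at 666 FPKM, YBX1 at 447 FPKM, HNRNPK at 294 FPKM, PCBP1 at 241 FPKM and YBX3 at 238 FPKM, followed by SOX2. Next came ATF4, the amino acid stress factor, at 200.3 FPKM, and, after PHB, FOXD1 at 118 and 114 FPKM. MYC stood at 69.5 FPKM and FOXM1, a driver of mitotic genes, at 66.1 FPKM. TP73, a relative of TP63, stood at 7.44 FPKM, and its columns did not overlap with those of TP63.

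**Figure D4:**
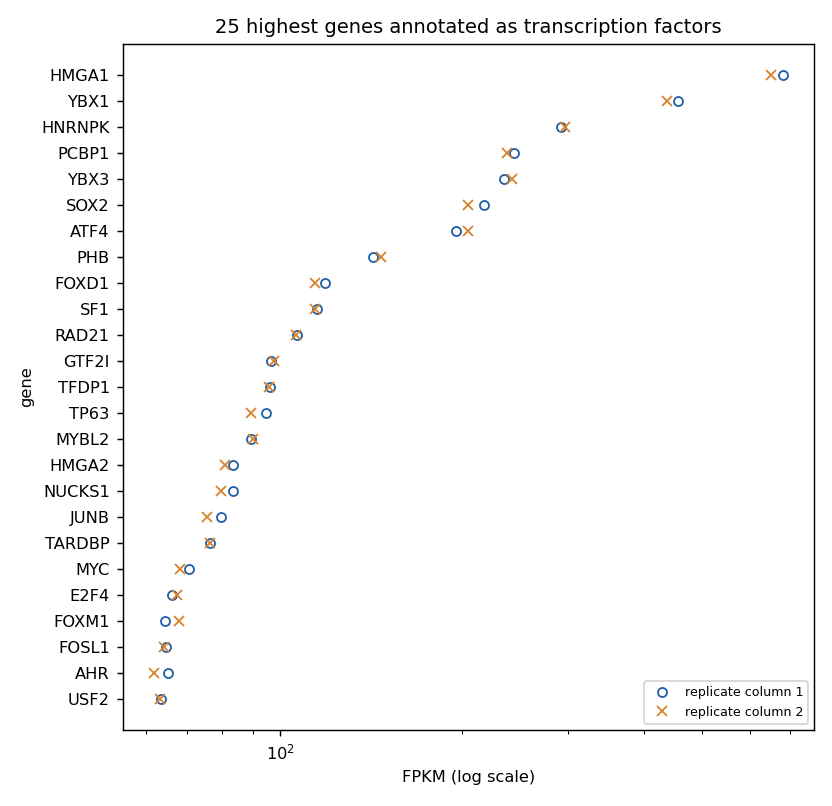
FPKM (x axis, log scale) of the 25 highest genes annotated as transcription factors (y axis), with replicate column 1 as circles and column 2 as crosses. HMGA1 lies highest at a mean of 666 FPKM, SOX2 lies at 218 and 205 FPKM, and TP63 at 94.7 and 89.5 FPKM.

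Families of factors were uneven within, and their shares at 1 FPKM stand beside 68.8% of all genes with a value. In the SOX family 8 of 16 genes with a value reached 1 FPKM, and after SOX2 came SOX4 at 40.4 FPKM and SOX15 at 15.3 FPKM, with SOX9 at 0.945 FPKM. The AP-1 dimer had JUNB at 77.8 FPKM, FOSL1 at 64.4, FOSL2 at 29.8, JUN at 28.7 and JUND at 24.7 FPKM, while FOS and FOSB stood at 0.755 and 0.635 FPKM. In the ETS family ERF stood at 42.0 FPKM, ETV4 at 38.3 FPKM and ETS2 at 25.5 FPKM. There 17 of 26 genes (65.4%), close to the share of all genes, reached 1 FPKM. Of 46 nuclear receptors with a value, 24 reached it, led by the orphan receptor NR2F6 at 39.4 FPKM, ESRRA at 25.4 FPKM and the epidermal retinoic acid receptor RARG at 25.5 and 24.6 FPKM. RARB, another retinoic acid receptor, stood at 0.175 FPKM and PGR at 0.04 FPKM, and ESR1 had no value.

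Receptor tyrosine kinases, which carry growth factor signals into the cell, were described with their ligands. Of 56 with a value, 28 reached 1 FPKM, beside 68.8% of all genes with a value, and 15 reached 10 FPKM. EGFR stood at 154 and 147 FPKM with rank 403 and was the highest. DDR1, a collagen receptor, stood at 135 and 138 FPKM, and its columns did not overlap with those of EGFR. MET followed at 51.5 and 49.4 FPKM, then PTK7 at 40.1, EPHB4 at 38.1 and RYK at 33.6 FPKM. EPHA2 stood at 30.9, IGF1R at 29.7, FGFR2 at 29.4 and NTRK2, the neurotrophin receptor, at 25.1 FPKM.

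Within the EGFR family, ERBB3 stood at 18.6 FPKM, ERBB2 at 16.6 FPKM and ERBB4 at 0.015 FPKM. The ligands of that family had AREG (amphiregulin) highest at 122 and 128 FPKM, then NRG1, a ligand of ERBB3 and ERBB4, at 36.3 and 36.5 FPKM. EREG stood at 9.07 FPKM, TGFA at 6.38 FPKM and EGF itself at 0.195 FPKM. The MET ligand HGF had no value. Of the ephrins, which bind EPH receptors on neighbouring cells, EFNB2 stood highest at 125 and 124 FPKM beside its receptor EPHB4. FGFR2 was higher than FGFR3 at 9.49, FGFR4 at 5.29 and FGFR1 at 4.91 FPKM. FGF2 stood at 10.4 FPKM and FGF7, a mesenchymal ligand of FGFR2, at 0.815 FPKM. Among PDGF genes the ligands PDGFA and PDGFB stood at 45.2 and 21.6 FPKM, and the receptors PDGFRA and PDGFRB at 0.465 and 0.04 FPKM.

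**Figure D5:**
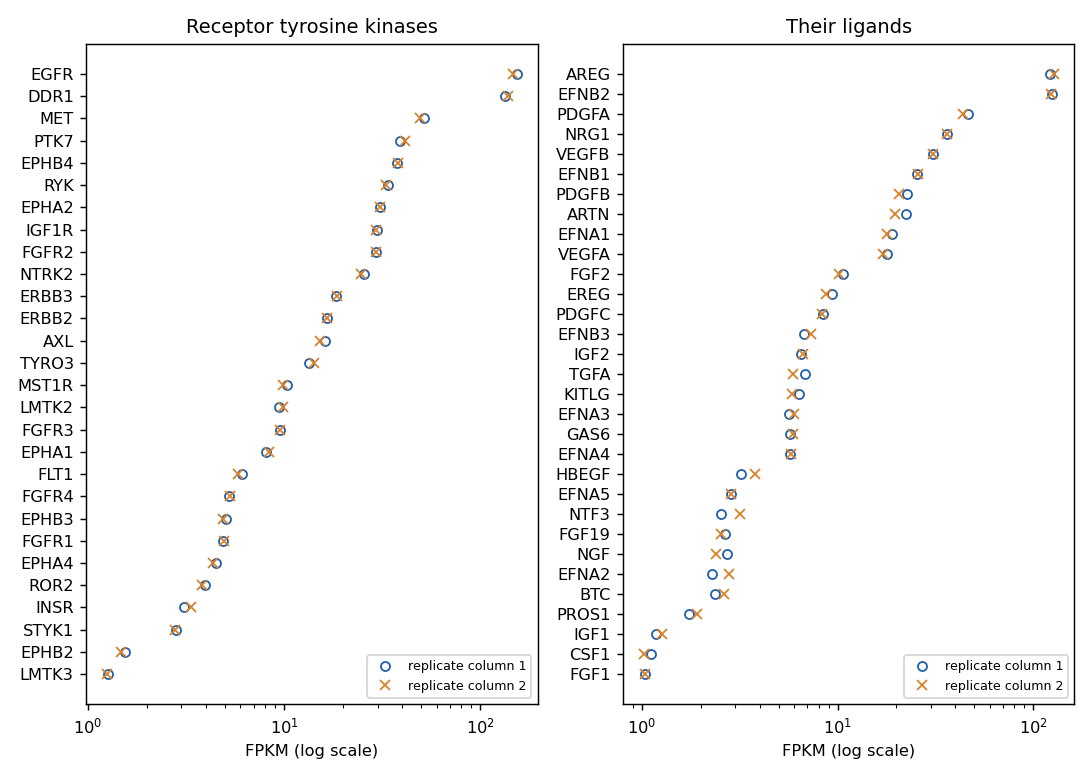
FPKM (x axes, log scale) of the 28 receptor tyrosine kinases at or above 1 FPKM (left) and of their ligands at or above 1 FPKM (right), with replicate column 1 as circles and column 2 as crosses. EGFR and DDR1 lie highest among the receptors, EGFR at 154 and 147 FPKM, and AREG and EFNB2 lie highest among the ligands, near 125 FPKM.

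Integrins, which bind matrix, were present at 1 FPKM in 14 of 26 genes (53.8%), below the 68.8% of all genes with a value. ITGB1 stood at 220 and 214 FPKM, ITGA2 at 79.0 FPKM, ITGA3 at 68.8 FPKM, ITGAV at 48.7 FPKM and ITGB6, an epithelial partner of ITGAV, at 23.1 FPKM. The leukocyte integrin chains ITGB2, ITGAM and ITGAL stood at 0.03, 0.17 and 0.15 FPKM. Of 25 NOTCH, WNT and related receptors with a value, 21 reached 1 FPKM, beside 68.8% of all genes. NOTCH3 stood at 30.9 FPKM, NOTCH1, which opposes the basal state, at 15.3 FPKM, and NOTCH4 at 0.105 FPKM, beside the ligands JAG2 at 68.9 and JAG1 at 38.7 FPKM. FZD6 stood at 38.8 FPKM and WNT7B was the highest WNT ligand at 60.7 FPKM.

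Of TGF-beta and BMP receptors 10 of 14 reached 1 FPKM (71.4%), close to the 68.8% of all genes with a value. TGFBR2 stood at 34.0 and TGFBR1 at 18.6 FPKM, and TGFB1 was their highest listed ligand at 44.0 FPKM. TNFRSF12A, the receptor of the cytokine TWEAK, stood at 141 FPKM and above the other death and TNF receptors, of which LTBR was next at 46.5 FPKM. FAS stood at 2.53 FPKM. Cytokine and interferon receptors reached 1 FPKM in 29 of 41 genes (70.7%), also close to the share of all genes. None was over 20 FPKM, with IFNGR1 at 18.2 and IL4R at 16.2 FPKM. G protein-coupled receptors reached 1 FPKM in 26 of 49 genes (53.1%), with the adhesion receptor ADGRG1 at 59.0 FPKM and F2RL1, a protease-activated receptor, at 28.9 FPKM. The order among the remaining receptors was not read.

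Of 33 genes listed as often altered in esophageal squamous carcinoma, 32 had a value. All 32 reached 1 FPKM, beside 68.8% of all genes with a value. CCND1, the cyclin of the G1 phase on 11q13, stood at 363 and 350 FPKM with rank 151, and its kinase partners CDK4 and CDK6 at 156 and 23.1 FPKM. The 33rd gene, CDKN2A, which encodes the CDK4 inhibitor p16, had no value, while its neighbours MTAP and CDKN2B stood at 47.2 and 44.8 FPKM and at 2.73 and 2.8 FPKM. RNA levels do not give copy number. KEAP1, which restrains NRF2, stood at 33.7 FPKM, and TERT, the telomerase gene, at 1.22 and 0.95 FPKM. NFE2L2, which encodes the oxidative stress factor NRF2, stood at 54.0 FPKM, and 27 of 28 listed NRF2 targets reached 1 FPKM, from FTH1 at 2477 FPKM to ABCC2 at 1.26 FPKM. AKR1B10 was under it at 0.945 FPKM, and NQO1 stood at 38.2 FPKM.

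Cancer-testis antigens, genes normally kept to the germ line and read as tumour antigens, covered a wide range. Of 21 with a value, 7 reached 1 FPKM (33.3%, beside 68.8% of all genes) and 10 stood under 0.1 FPKM, 5 of them listed at 0. MAGEA4 stood at 138 FPKM in both columns to 3 digits, with rank 451, MAGEA6 at 136 FPKM, MAGEA12 at 40.4 FPKM, PRAME at 28.3 FPKM and BRDT, a testis bromodomain gene, at 26 FPKM. MAGEA1 stood at 0.17 FPKM, and MAGEC1 and MAGEC2 were listed at 0. The MAGEA genes are close copies of each other and MAGEA3 was not analysed here, so the level given to MAGEA6 may hold reads of a copy.

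Of 18 genes of HLA class I presentation, 16 reached 1 FPKM (88.9%), beside 68.8% of all genes with a value. B2M stood at 140.3 FPKM and HLA-B at 62.6 FPKM. The peptide transporter genes TAP1 and TAP2 stood at 22.8 and 28.0 FPKM. The immunoproteasome subunits PSMB9 and PSMB8 stood at 6.54 and 0.09 FPKM. None of 8 class II genes with a value reached 1 FPKM, with CIITA, their regulator, at 0.295 FPKM. Reads at HLA genes depend on how well the line's alleles match the reference. CD274, which encodes PD-L1, stood at 0.52 and 0.85 FPKM, and CD276, a related surface protein, at 57.5 FPKM. Of secreted cytokines, 23 of 33 reached 1 FPKM (69.7%), close to the share of all genes. MIF led at 639 and 595 FPKM, then the epithelial chemokine CXCL14 at 162 FPKM in both columns. CXCL1 stood at 50.3 FPKM and CXCL8 at 38.9 FPKM, both neutrophil attractants, and IL6 at 0.205 FPKM.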

How the data were processed

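Per the file headers, the authors deposited FPKM for each gene in 2 replicate columns and as their mean, which equals the mean of the columns. RSEM 1.2.12, Bowtie2 2.2.5, HISAT2 2.0.4, DESeq 3.4 and the build hg19 were used, per the submitters' processing notes, which state no roles. The sources used here give neither strand use nor the handling of gene copies. Only the control columns were used, and 6 columns of the other samples were not. From the table's 19266 genes, after dropping 14 lines without a gene ID, 17219 had a value; 17182 matched a RefSeq gene table, which restored 26 symbols. Python 3.11.15 with pandas 2.3.3 computed means, SDs over 2 columns, ranks and counts at a threshold of 1 FPKM. Depth was read from the spacing of low FPKM (81.9% and 82.3% of values within 0.2 reads of whole). On 3 simulated depths the error was at most 1.0%. The simulation used whole reads and the same transcript lengths as the estimate, so this is not the error on the deposited values. Named genes were the 5 markers, the 25 highest genes, some of the 6 highest members of each list and, in lists of other lineages, members at 5 FPKM or more; other members, many of them low or absent, were named after their values were seen. Transcription factors came from the deposited annotation; receptors came from lists, since that annotation counts KRT17 and TKT as receptors. The sample, the lists and the sequence features were chosen with earlier results of these data known. The design text speaks of retina and of triplicates, and the sample labels were followed. Alternatives were other thresholds, single columns, rescaling and leaving out gene classes. Some list members are counted but not reported here by name.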

Additional observations from a re-analysis of the deposited data

How the results depend on the processing

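The number of detected genes moved from 11846 at 1 FPKM to 12679 at 0.5, 14500 at 0.1 and 8840 at 5 FPKM, to 11718 when both columns had to reach 1 FPKM and to 12872 after rescaling FPKM to a fixed sum (TPM); single columns gave 11850 to 11851. The share of the 100 highest genes (27.4%) was 22.1% without ribosomal protein genes, 27.5% among protein-coding genes and 27.43% to 27.44% in single columns. Of 53 lists, the count of detected members moved by over 1.5 times in 6 at 0.5 FPKM, in 20 at 5 FPKM and in none with a single column. With a tract allowed to begin within 5 bases of the start, 76.1% of ribosomal protein genes and 22.5% of all genes held it; this setting was added after the data were seen. No paired analysis was possible because 1 sample was described and no groups were compared. Precision is limited by depth under 0.1 FPKM.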

Other observations

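Across 291 pathways of the deposited annotation with at least 30 genes with a value, the share of genes at 1 FPKM ran from 96.8% in terpenoid backbone synthesis, which supplies sterols and prenyl groups, to 25.6% in autoimmune thyroid disease. Cell cycle genes reached it in 94.6%, DNA replication in 93.3% and the spliceosome in 92.2%. Olfactory transduction reached it in 29.1% and phototransduction in 35.2%. Pathways share genes, and the share in all genes with a value was 68.8%. Genes without a value, among them 310 olfactory receptor symbols, are left out of these shares.

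Levels were also set beside gene order on hg19, a view chosen after seeing the data. Over 16722 windows of 10 neighbouring genes with a value, the median of window medians was 6.01 FPKM. The highest window, at 94.7 FPKM, lay on chromosome 17 from 39679869 to 39968451. It held the type I keratins KRT14, KRT16, KRT17 and KRT19, with JUP, the desmosomal plakoglobin, and with KRT9 at 0.85 FPKM. The type I keratins KRT10, KRT13 and KRT15 lie outside it. Of the windows at places 2 to 5, those at places 2 and 4 lay on chromosome 19, ASF1B to NDUFB7 at 81.8 FPKM and RYR1 to HNRNPL at 76.5 FPKM. At place 3, a window on chromosome 11 from 69455873 to 71212584, CCND1 to NADSYN1, had a median of 78.4 FPKM with 10 of 10 genes at 1 FPKM, among them CTTN at 234 FPKM, PPFIA1 at 117 FPKM and FADD at 82.2 FPKM. At place 5, a window on chromosome 3 from 179280668 to 181432224, ACTL6A to SOX2, had a median of 69.8 FPKM with 8 of 10. The order depended on the window: with 20 genes the highest was on chromosome 11, PPP6R3 to NADSYN1 at 54.6 FPKM, and with 6 genes it was on chromosome 17, KRT19 to EIF1 at 310.4 FPKM, with chromosome 11 (ANO1 to DHCR7, 99.5 FPKM) at place 7. Copy number was not measured.

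Among genes at 20 FPKM or more, the control columns differed most for GAGE12G, a cancer-testis gene with close copies, at 24.8 and 38.3 FPKM. TMEM258 stood at 139 and 102 FPKM, and NPIPA8, of a duplicated family, at 27.3 and 36.5 FPKM. There were 11 genes at 0 in 1 column and at 1 FPKM or more in the other.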
